A study of Caenorhabditis elegans with 6 samples.

Results

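The left arm of chromosome V of Caenorhabditis elegans was taken as chrV:200001-5900000 in the genome build ce11, a stretch of 5.7 Mb. It was described by DamID for EMR-1, the worm emerin. Bins were chosen by position and read depth, not by their signal. Of 570 possible bins of 10 kb in the stretch, 549 are listed in the tables, and 2 of these held fewer than 60 reads over all libraries. The remaining 547 bins, of 9914 analysed in the whole series, were used. The finer 2-kb table gave 2342 bins with at least 60 reads.

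Emerin is a protein of the inner nuclear membrane that binds the nuclear lamina, the protein mesh that lines the nucleus. In DamID, a bacterial DNA adenine methylase fused to such a protein marks GATC sequences that come close to it, and a freely diffusing methylase fused to GFP measures how accessible each site is. In worms the arms of the autosomes are rich in repeats and in histone H3 methylated at lysine 9, and they are known for lying near the nuclear periphery, while the chromosome centres hold most genes used in every cell. Chromosome V is known for long arrays of chemoreceptor genes, which encode receptors of sensory neurons, and for many genes of nuclear hormone receptors, a class of transcription factors.

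The study profiled embryos of strain BN1470, which carries Dam::EMR-1, and of strain BN1465, which carries GFP::Dam, with 3 libraries each. The labels give wild type as the genotype and EMS as the cell type of all 6 libraries. EMS is the founder blastomere of the endoderm and of much of the mesoderm, and how methylation was limited to its descendants is not given in the labels. Embryos came from adults grown at 20 °C for 72 h on bacteria that lack Dam methylation. Strain and construct cannot be told apart, and nothing in the labels says that the replicates were separate cultures, so p-values measure the spread between these libraries, which may be technical. Depth ran from 15719682 to 22407988 reads in Dam::EMR-1 and from 16278015 to 17535839 reads in GFP::Dam. The assay reads DNA, so transcripts that would mark EMS cells were not measured.

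The left arm of V had more EMR-1 signal than the genome as a whole. The deposited value is a log2 ratio between libraries of the same number, centred by the authors to a mean of 0. Which construct is on top is not stated, and Dam::EMR-1 over GFP::Dam was assumed from the naming of the tables. The reads given for each library, the groups they stand under and the words enriched and depleted all rest on this, and with GFP::Dam on top every sign and every pair of groups would be turned round. Averaged over the 547 bins it was 1.53, 1.50 and 1.39 in the 3 replicates, a mean of 1.47 ± 0.08 (SD, n = 3). A bin was called enriched when its ratio lay above 0, and depleted when it lay below 0, at a Benjamini-Hochberg adjusted p under 0.05 in limma. In the arm 256 bins (46.8%) were enriched, beside 28.4% of all bins. A further 60 bins (10.97%) were depleted, beside 25.2% of all bins, and 231 were not called. The median bin stood at 1.97, and single bins ran from -9.39 to 8.07. In the authors' deposited table, 540 bins of the arm have an adjusted p. By that adjusted p 281 (52.0%) were called higher in Dam::EMR-1 and 79 (14.6%) lower, beside 31.7% and 29.6% of all bins. The other bins of the arm were called in neither direction.

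At 2 kb the picture was the same in direction. In the arm 731 bins of 2 kb (31.2%) were enriched, beside 19.2% of all such bins, and 178 (7.60%) were depleted, beside 17.2%. Single 2-kb bins ran from -11.16 to 10.26. The 10-kb profile repeated between replicates, with Pearson's r of 0.756 to 0.759 between pairs of ratios over the 547 bins. Adjoining bins shared signal, with r = 0.53 between neighbours, so bins are not independent and these values describe the profile only.

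**Figure D1:**
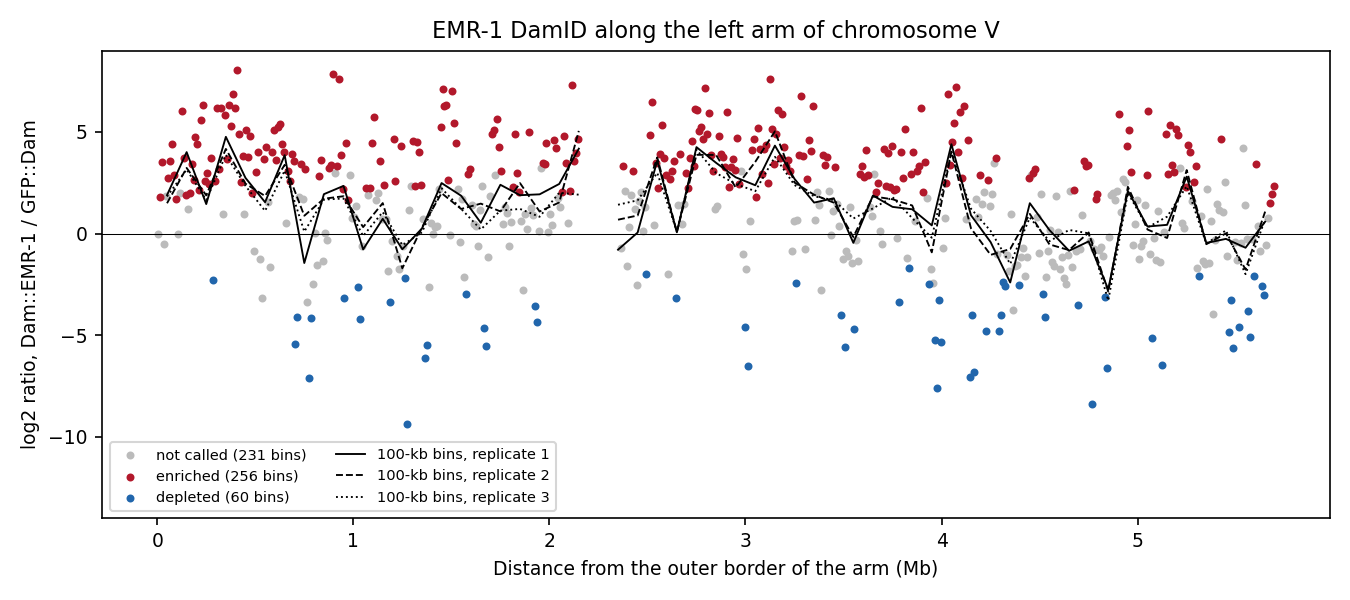
Log2 ratio of Dam::EMR-1 over GFP::Dam (vertical axis) against distance from the outer border of the arm in Mb (horizontal axis). Points are 547 bins of 10 kb, coloured by call, and black lines are the 3 replicates in 100-kb bins. The outer part of the arm sits mostly above 0 with scattered depleted bins, the inner part lies nearer 0, and the break in the lines is a stretch of 210 kb without listed sites.

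Reads of each library showed what moved. The arm makes up 5.68% of the genome. It held 6.92%, 7.12% and 6.64% of Dam::EMR-1 reads, against 2.81%, 2.76% and 2.95% of GFP::Dam reads. The groups do not overlap, and the arm was over-represented in every Dam::EMR-1 library and under-represented in every GFP::Dam library. The means were 6.89% ± 0.243 and 2.84% ± 0.0982 (SD, n = 3 each), and an exact permutation test (two-sided) gave p = 0.1, the smallest value that 3 against 3 libraries allow. Over 5 such comparisons the adjusted p was also 0.1.

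Part of the GFP::Dam share came from a single bin. The bin chrV:5040001-5050000, which holds the low-coordinate end of pqn-51, a gene for a protein with a prion-like glutamine- and asparagine-rich domain, had 2521, 2086 and 375 Dam::EMR-1 reads, against 82495, 65579 and 82663 GFP::Dam reads. It held 0.163%, 0.186% and 0.0325% of the Dam::EMR-1 reads in the arm, against 16.8%, 14.6% and 16.03% of the GFP::Dam reads there. Most of its reads lay at 3 GATC sites, with 93275, 92663 and 23983 reads over the 6 libraries. Without this bin the share of the arm was 6.88% ± 0.237 in Dam::EMR-1 and 2.39% ± 0.0758 in GFP::Dam (SD, n = 3 each), so the difference was slightly larger. GFP::Dam reads were the more concentrated also without it. Over the other 522 bins whose reads could be recovered, the 5 bins with the most reads in a library held 6.96%, 6.98% and 7.36% of Dam::EMR-1 reads, against 15.4%, 15.7% and 13.2% of GFP::Dam reads.

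The arm was set against the other chromosome regions, first of all the centre and the right arm of its own chromosome. On the same scale the arm's bins averaged 1.47 ± 0.08, those of the centre of V -0.13 ± 0.26 and those of the right arm of V 2.34 ± 0.27 (SD, n = 3 ratios each). The left arm exceeded the centre by 1.49, 1.94 and 1.40 in the 3 replicates, a difference of 1.61 ± 0.29 (limma adjusted p = 1.30e-12). From the right arm it differed by -0.85, -1.08 and -0.66, a mean difference of -0.86 ± 0.21 (limma adjusted p = 1.29e-06). Both p-values come from a joint fit over differences that share this arm. They are far smaller than the 3 replicates alone would give. Enriched bins made up 46.8% of the left arm, 27.5% of the centre and 54.3% of the right arm. Depleted bins made up 10.97%, 27.3% and 6.52% of these regions in the same order.

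Of 17 differences between the arm and another region, 15 (88.2%) passed the threshold. All 17 share the values of the left arm, and their spread was estimated together, with an SE of 0.14. The fit treats the 17 as independent, which they are not, so its p-values can be far too small. The count of 15 rests on this fit, and the SD beside each difference gives the spread of its 3 replicates. The 2 that did not pass were those from the left arm of II, at 0.16 ± 0.12 (limma adjusted p = 0.26), and the left arm of III, at 0.29 ± 0.28 (limma adjusted p = 0.058). A difference of the size of the SE would not be seen here, and these regions are not shown to be alike. The arm was lower than 2 regions, the right arm of V and the right arm of IV, from which it differed by -0.63 ± 0.17 (limma adjusted p = 0.00015). Differences from arms of other autosomes depended on how bins were weighed. With reads summed over each region, where deep bins weigh most, those from the right arms of I and IV and from the left arm of III changed sign. In the same setting those from the right arm of II (0.09, limma adjusted p = 0.28) and the left arm of IV (0.03, limma adjusted p = 0.74) lost their call, and that from the left arm of II passed (0.34, limma adjusted p = 0.00026). In 2-kb bins the difference from the right arm of IV was -0.25 (limma adjusted p = 0.067). That from the left arm of II also passed as a median over bins (limma adjusted p = 0.013), and that from the left arm of III in 2-kb bins (limma adjusted p = 0.040) and without the replicate block (limma adjusted p = 0.011).

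Read levels of the libraries separated what the ratio joins. Counts were divided by the library total to give CPM, and the mean log2(CPM + 1) over 10-kb bins was 5.997 ± 0.08 in Dam::EMR-1 and 4.09 ± 0.20 in GFP::Dam for the left arm. It was 5.47 ± 0.14 and 5.07 ± 0.16 for the centre, and 5.86 ± 0.15 and 3.19 ± 0.25 for the right arm (SD, n = 3 each). The left arm lay above the centre by 0.45, 0.74 and 0.39 in Dam::EMR-1 and below it in GFP::Dam, with -0.97, -1.02 and -0.92 (exact permutation p = 0.1). Against the right arm it was higher by 0.16, 0.04 and 0.22 in Dam::EMR-1 and by 0.86, 0.98 and 0.87 in GFP::Dam (exact permutation p = 0.1). The lower ratio of the left arm relative to the right arm thus stood beside a difference of 0.14 ± 0.10 in Dam::EMR-1 and one of 0.90 ± 0.07 in GFP::Dam.

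**Figure D2:**
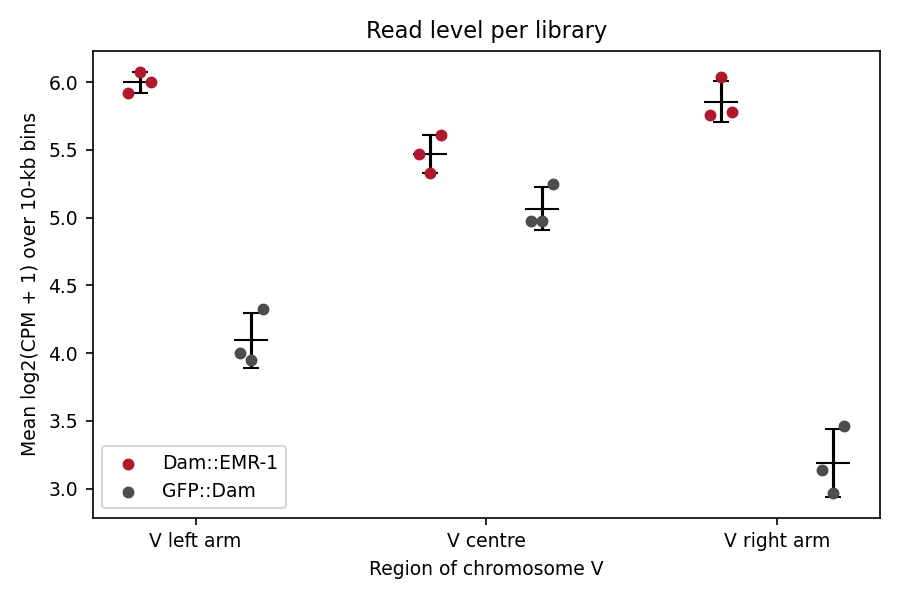
Mean of log2(CPM + 1) over 10-kb bins (vertical axis) in the left arm, centre and right arm of chromosome V (horizontal axis), Dam::EMR-1 left of GFP::Dam in each. Points are libraries, and horizontal bars with error bars are means ± SD (n = 3). Dam::EMR-1 is near 5.997 in the left arm and 5.86 in the right arm, while GFP::Dam is 4.09 and 3.19 there.

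Within the arm the signal was not even. The mean ratio was 2.56 ± 0.20 from 0.2 to 1 Mb, 1.43 ± 0.10 from 1 to 2 Mb, 2.28 ± 0.23 from 2 to 3 Mb and 2.14 ± 0.16 from 3 to 4 Mb. It was 0.23 ± 0.07 from 4 to 5 Mb and 0.50 ± 0.21 from 5 to 5.9 Mb. Beyond the border, with the stretch from 5.9 to 6 Mb left out, it was -0.75 ± 0.29 from 6 to 7 Mb (SD, n = 3). From 7 to 8 Mb it was 0.79 ± 0.11, above both inner windows of the arm. A drop thus lay near 4 Mb, inside the arm, and the values further in went both down and up. From 0.2 to 4 Mb, 201 of 357 bins (56.3%) were enriched and 27 depleted, while from 4 to 5.9 Mb, 55 of 190 bins (28.9%) were enriched and 33 depleted. This division was chosen after the values were seen and was not tested.

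Both constructs changed across 4 Mb. The read level was 6.31 ± 0.11 in Dam::EMR-1 and 3.81 ± 0.22 in GFP::Dam in the outer 0.2 to 4 Mb. It was 5.40 ± 0.08 in Dam::EMR-1 and 4.64 ± 0.18 in GFP::Dam from 4 to 5.9 Mb (SD, n = 3 each). The last bin inside at the inner end had a ratio of 2.36 and the next bin outside 3.31, and at the outer end the first bin inside had -0.01 and the bin before it 2.24. At the read minimum, the 2 bins left out had 37 and 38 reads, with ratios of -1.36 and -1.16, and the 2 bins with the fewest reads among those kept had 73 and 117 reads, with ratios of 2.53 and -3.37.

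The enriched bins joined into 53 domains, runs of at least 2 adjoining bins, which covered 2360 kb or 41.4% of the arm. Depleted bins formed 15 domains that covered 360 kb or 6.32%. The median length was 30 kb for enriched and 20 kb for depleted domains. Of the enriched domains 41 began before 4 Mb, and of the depleted ones 7. Chemoreceptor genes made up 223 of the 566 protein-coding genes lying whole in enriched domains (39.4%), 1 of the 61 in depleted domains (1.64%) and 335 of the 1323 in the arm (25.3%). Bins and genes share GATC sites, so this is the same signal counted in another way.

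The longest enriched domain, chrV:3230001-3430000, held 5969, 6549 and 5457 CPM in Dam::EMR-1, against 343, 249.8 and 443 in GFP::Dam, and 15 of its 61 genes were chemoreceptor genes. The second, chrV:2890001-3040000, held 1759, 1882 and 1596 CPM in Dam::EMR-1, against 83.8, 110.9 and 81.03 in GFP::Dam, with a mean ratio of 4.60 ± 0.77. It is largely an array of srw and srh chemoreceptor genes, which with other families made up 30 of its 44 genes. The fifth, chrV:540001-640000, had the highest mean ratio of the 5 longest, 5.36 ± 0.49. Its levels were 6242, 5855 and 5796 CPM in Dam::EMR-1, against 130.8, 132.6 and 221 in GFP::Dam. Domains were built from bins called on these same ratios, so the distance between the groups in them is a description that the choice of bins sets. The 2-kb bins share these reads and are no separate support. Of them 43 of 49 were enriched in the fifth domain. In the first to the fourth it was 62 of 98, 40 of 68, 33 of 53 and 19 of 48, beside 31.2% in the arm.

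The longest depleted domains were shorter, at most 40 kb. The first, chrV:4160001-4200000, held 49.3, 54.2 and 44.6 CPM in Dam::EMR-1, against 355, 520 and 421 in GFP::Dam, a mean ratio of -5.36 ± 0.79. Among its 9 genes are coh-4, which encodes a kleisin subunit of meiotic cohesin, and nhr-114, a nuclear hormone receptor. The domain chrV:4340001-4370000 had 23.6, 4.77 and 51.2 CPM in Dam::EMR-1, against 415, 494 and 517 in GFP::Dam. It contains mcm-7, a subunit of the replicative helicase, and figl-1, a fidgetin-like ATPase. The domain chrV:5660001-5690000, with a mean ratio of -4.58 ± 0.78, contains hmgs-1, the HMG-CoA synthase of the mevalonate pathway, and prp-39, a splicing factor. The domain chrV:1560001-1580000, at -5.81 ± 0.79, lies over cdc-25.2, a phosphatase that activates cyclin-dependent kinases.

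**Figure D3:**
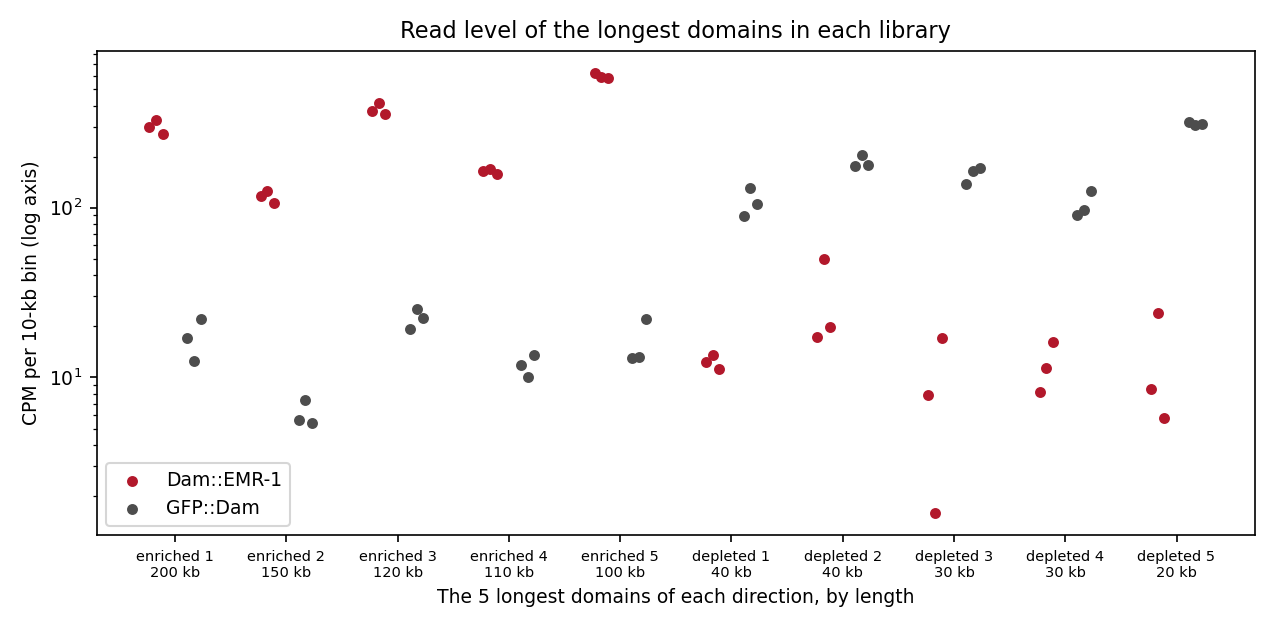
CPM per 10-kb bin on a log axis (vertical) in the 5 longest enriched and the 5 longest depleted domains (horizontal), Dam::EMR-1 left of GFP::Dam in each. Points are the 3 libraries of each group. The domains were chosen on the ratio of these libraries, which sets the distance between the groups, and both groups differ between the classes: Dam::EMR-1 is high in enriched and low in depleted domains, and GFP::Dam the reverse.

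Single bins reached extremes in both directions. The bin with the highest ratio, chrV:600001-610000, had 11443, 6021 and 6976 Dam::EMR-1 reads, against 10, 12 and 39 GFP::Dam reads, a ratio of 8.07 ± 1.05. The lowest, chrV:1470001-1480000, had 15, 4 and 63 Dam::EMR-1 reads, against 7704, 6749 and 6902 GFP::Dam reads, a ratio of -9.39 ± 2.07. It contains unc-60, which encodes the actin-severing proteins of the ADF and cofilin family. Depleted bins also stood among enriched ones. The bin chrV:480001-490000, inside an array of nuclear hormone receptor genes, had 176, 331 and 263 CPM in Dam::EMR-1, against 821, 759.8 and 839.6 in GFP::Dam. Its ratio was -2.30 ± 0.39, while the bins before and after it stood at 3.695 ± 1.84 and 2.57 ± 0.42.

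Enriched and depleted bins seldom touched. Of 543 adjoining pairs of bins, 204 carried the same call and 12 opposite calls. The largest step lay at position 4340000, where the ratio was 4.59 in the bin before and -7.06 in the bin after, a step of -11.80, -11.23 and -11.93 in the 3 replicates. In 2-kb bins it took about 10 kb: the ratio was 5.57 and 4.44 in the bins that begin at 4330001 and 4332001, -3.01 and -3.48 on both sides of the border with no call, and -8.65 in the bin that begins at 4344001. The gene oac-12, an acyltransferase homologue, lies on the enriched side and figl-1 and mcm-7 on the depleted side. The steps at 900000, from enriched to depleted, and at 1160000, from depleted to enriched, were -8.97 ± 1.55 and 7.62 ± 1.25 (SD, n = 3). Reads were few next to the borders at 4340000 and 900000, with 69 to 190 reads over the 6 libraries in the 2-kb bins nearest to them that passed the minimum.

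**Figure D4:**
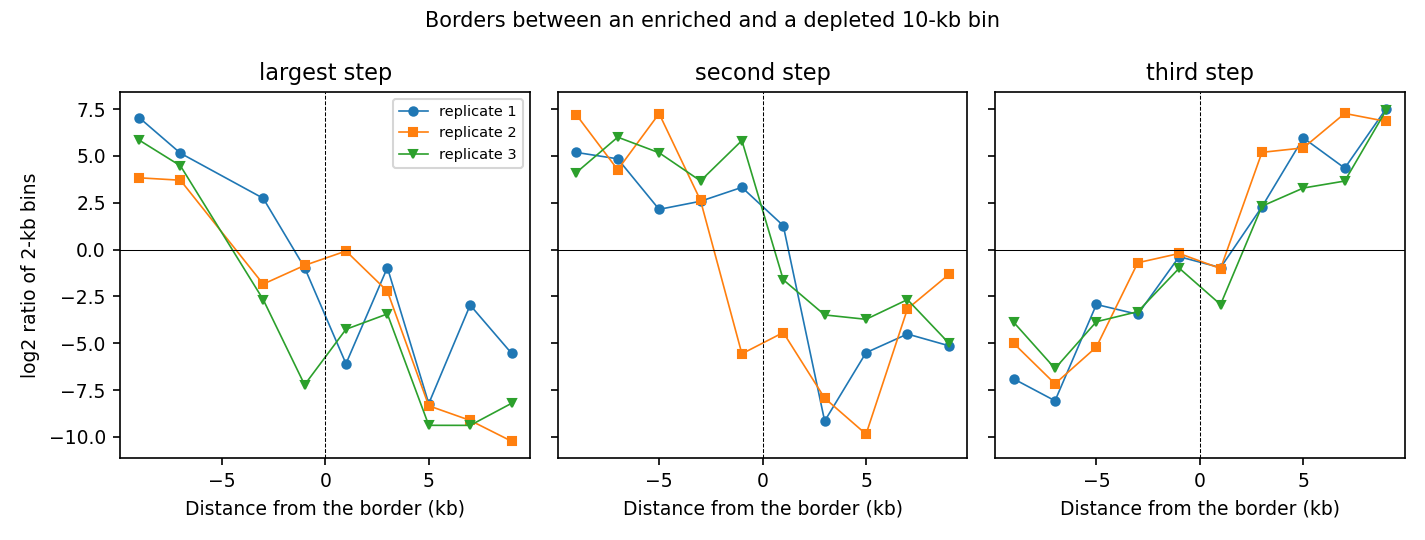
Log2 ratio of 2-kb bins (vertical axis) against distance in kb from the 3 borders with the largest steps between an enriched and a depleted 10-kb bin (horizontal axis), at 4340000, 900000 and 1160000. Each line is 1 replicate, bins under 60 reads are drawn too, and a gap between points is a bin that is not listed. The ratio changes sign within a few kb of each border in the 3 replicates.

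A single run of 21 bins, chrV:2350001-2560000, has no listed GATC site in the tables used here and was not analysed here. The last listed site before it is at 2346497 and the first after it at 2564146. The gene table places 54 genes there, 45 of them protein-coding, including 16 chemoreceptor genes such as str-265 and srd-75. The 5 bins before the run were all enriched, with ratios of 2.11 to 7.33, and 1 of the 5 bins after it was. Nothing can be said of the signal within the run.

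The same signal was also described by protein-coding gene. Each gene was given the average ratio of the GATC sites within it and up to 500 bp outside, so neighbours can share sites. Of 1323 protein-coding genes lying whole in the arm, 1210 had at least 60 reads. In limma 645 of them (53.3%) were enriched, beside 30.2% of the genes of the genome, and 128 (10.6%) were depleted, beside 27.2%. The median ratio was 2.37 in the arm and 0.31 in the genome. With edgeR's quasi-likelihood test on recovered reads, 240 of 1201 tested genes of the arm were enriched and 68 depleted. The share over the genome in edgeR is not given here, so these counts do not show an excess in the arm.

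Chemoreceptor genes were the largest group counted. The arm holds 335 of the 1308 on the 6 chromosomes, and 298 had enough reads. Of these 235 (78.9%) were enriched and 3 depleted (median ratio 3.42). Their mean over the 3 replicates was 3.49, 3.13 and 3.07. Genes of the arm that are neither chemoreceptors nor nuclear hormone receptors had a median of 1.78, with 369 of 836 (44.1%) enriched and 122 depleted. In the centre of V 214 of 366 chemoreceptor genes (58.5%) were enriched, with a median of 2.66, and in its right arm 111 of 143 (77.6%), with a median of 3.701. These shares between regions were not tested against each other.

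Enriched genes were the majority in each of the 9 chemoreceptor families with at least 15 tested members. The srw genes had 32 of 35 enriched, followed by str with 37 of 45, srh with 38 of 47, srt and srbc with 26 of 33 each, srx with 22 of 28, srg with 12 of 16, srj with 17 of 24 and srab with 10 of 15. Their medians ran from 2.74 in srj to 3.63 in srbc. Smaller families ranged from 5 of 5 in sri and 4 of 4 in sru to 2 of 5 in srsx and 1 of 3 in srr, and differences between families were not tested. The gene with the highest ratio was str-256 at chrV:499770-501330, with 304, 423 and 280 CPM in Dam::EMR-1, against 0.627, 0.676 and 0.286 in GFP::Dam, a ratio of 7.37 ± 0.80 (limma adjusted p = 1.29e-05). The gene srx-8 had 132, 150.2 and 109 CPM in Dam::EMR-1, against 0, 0 and 1.09 in GFP::Dam, and a ratio of 6.78 ± 0.41. Both are among the 10 highest named genes of the arm, a choice that sets the distance between their groups. The 3 depleted genes went the other way, and among them srh-2 had 8.21, 86.1 and 88.8 CPM in Dam::EMR-1, against 358, 221 and 290.1 in GFP::Dam. Its ratio was -5.41 ± 1.43 (limma adjusted p = 9.5e-05), and the call was lost in edgeR with an adjusted p of 0.054. Since srh-2 is among the 10 lowest named genes, the choice sets this distance too. How reads from near-identical copies were assigned is not given in the sources used here, so single members of these families are uncertain.

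In 17 of 19 arrays of chemoreceptor genes more of the tested genes were enriched than not. An array was a run of at least 5 members with gaps of at most 50 kb, and the mean gene ratio of the arrays ran from 1.51 to 4.95. The array with the most genes, 22 srw genes at chrV:2887191-3034336, had 17 of 20 tested genes enriched, with a mean gene ratio of 3.97 ± 0.84. Its member srw-119 had 74.4, 65.9 and 30.9 CPM in Dam::EMR-1, against 0.228, 0.246 and 0.629 in GFP::Dam. This gene is among the 10 highest named genes, a choice that sets the distance between its groups. Of 15 srh genes at chrV:2771860-2987507, 11 of 13 tested were enriched, with a mean of 3.50 ± 0.33. An array of 10 srt genes at chrV:4240952-4287203, in the inner part of the arm where the average bin stood nearer 0, had 8 of 10 enriched and a mean of 3.62 ± 0.38. The 2 arrays without a majority were 9 srbc genes at chrV:2147095-2191222, with 4 of 9 enriched, and 5 srsx genes at chrV:4971770-4983191, with 1 of 4 tested genes enriched. Bins over an array could be lower than its genes. Over 6 str genes at chrV:4879945-4958572 the bins averaged 0.86 ± 0.49, and over 7 srj genes at chrV:2832966-2859838 they averaged 0.59 ± 0.42, with 1 of 3 bins enriched and 1 depleted.

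Bins were also split by the genes they hold. A gene was placed in the bin that holds its midpoint. Bins with a chemoreceptor gene averaged 3.10 ± 0.14 from 0.2 to 4 Mb and 2.72 ± 0.23 from 4 to 5.9 Mb. Bins with an nhr gene and no chemoreceptor gene averaged 2.08 ± 0.17 and 0.09 ± 0.21 in the same windows, the inner one with 7 such bins. Bins with other protein-coding genes only averaged 1.53 ± 0.16 and -0.31 ± 0.09 (SD, n = 3). The mean of each class was lower in the inner window, that of bins with a chemoreceptor gene by the smallest amount of these 3 classes. Over the whole arm 72.0% of 175 bins with a chemoreceptor gene were enriched and 2 were depleted, and 35.2% of 301 bins with other protein-coding genes only were enriched and 48 depleted. These windows and classes were not tested.

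**Figure D5:**
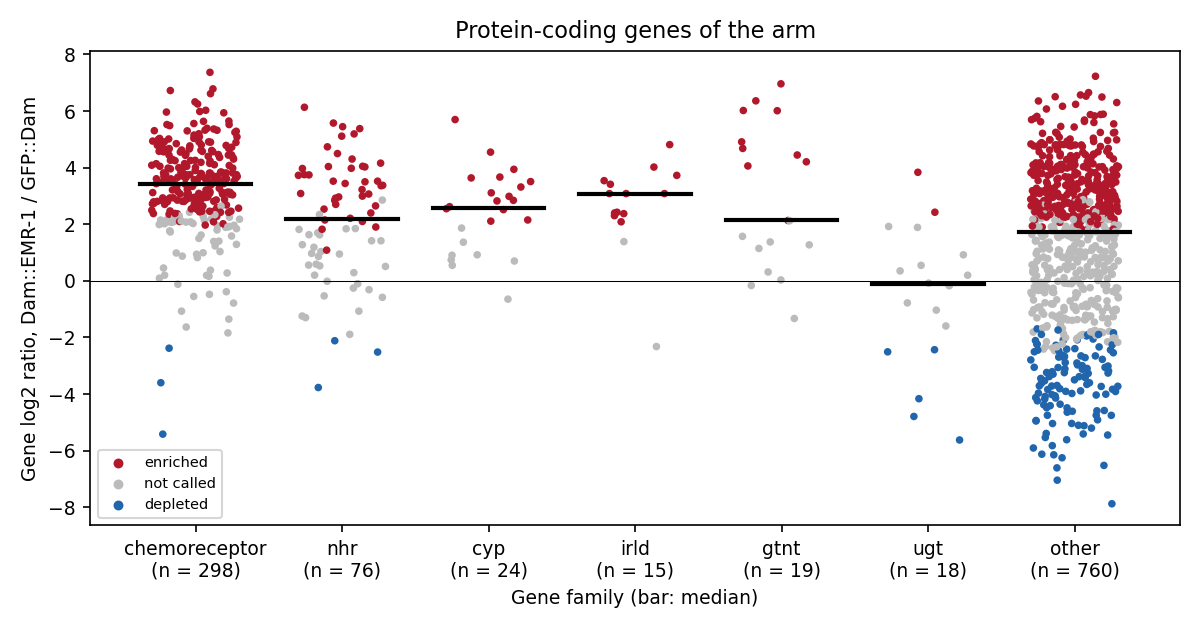
Log2 ratio of Dam::EMR-1 over GFP::Dam (vertical axis) of the 1210 tested protein-coding genes of the arm by family (horizontal axis). Points are genes, coloured by call, and black bars are medians. The medians are 3.42 for chemoreceptor genes, 2.18 for nhr, 2.59 for cyp, 3.08 for irld, 2.13 for gtnt and -0.13 for ugt.

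Nuclear hormone receptor genes were more divided. Of 76 tested nhr genes 41 (53.9%) were enriched and 3 depleted (median ratio 2.18), a share close to that of all genes of the arm. The gene nhr-251 at chrV:600531-602469, in the bin with the highest ratio of the arm, had 448, 307 and 299 CPM in Dam::EMR-1, against 0.342, 0.676 and 2.06 in GFP::Dam, a ratio of 6.13 ± 1.04 (limma adjusted p = 3.01e-05). This gene is among the 10 highest named genes, a choice that sets the distance between its groups. The mean ratio over all tested genes of the arm was 1.73 ± 0.15, and 53.3% of them were enriched. Of the 4 arrays, 3 had means above this, a difference that was not tested. They were 19 genes at chrV:392628-541485 with a mean of 2.56 ± 0.30 and 13 of 18 enriched, 19 genes at chrV:2192485-2296977 with 2.40 ± 0.46 and 12 of 19 enriched, and 10 genes at chrV:3844429-3908452 with 2.26 ± 0.54 and 5 of 10 enriched. The fourth, 7 genes at chrV:1603906-1629432, had a mean of 0.12 ± 0.24 and 0 genes called by limma, with 1 at an unadjusted p under 0.05. EdgeR also called 0 of them, and limma without the replicate block called 1. This array lies next to 6 irld genes at chrV:1632017-1670761, of which 4 of 5 tested were enriched, with a mean of 3.15 ± 0.26.

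Of the families of detoxification enzymes, glutathione S-transferase genes (gst) had 3 of 5 enriched, beside 53.3% enriched and 10.6% depleted among all genes of the arm. Cytochrome P450 genes, which encode oxidising enzymes, had 16 of 24 enriched (median ratio 2.59). Their highest member, cyp-33C11, had 92.2, 355 and 224.7 CPM in Dam::EMR-1, against 0.171, 10.5 and 12.9 in GFP::Dam, a ratio of 5.70 ± 1.26. Genes of UDP-glucuronosyltransferases, which attach sugar acids to small molecules, had 2 of 18 enriched and 5 depleted and a median ratio of -0.13. Their array of 8 genes at chrV:4887165-4911399 had a mean of -1.34 ± 0.42, with 3 of the 8 depleted. In it ugt-11 had 1.34, 1.02 and 0.634 CPM in Dam::EMR-1, against 92.2, 130.4 and 127.04 in GFP::Dam, a ratio of -5.62 ± 0.51 (limma adjusted p = 8.57e-05). The groups did not overlap for ugt-11, which is among the 10 lowest named genes, a choice that sets this distance. Differences between these families were not tested.

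Smaller families are read against the 53.3% enriched and 10.6% depleted among all genes of the arm. Genes with a receptor L domain (irld) had 13 of 15 enriched and a median ratio of 3.08. Of 7 oac genes 5 were enriched, and of 10 neuropeptide genes (flp and nlp) 5 were enriched and 1 depleted. The gtnt and srlf genes, whose families were added after the genes of the arm had been seen, had 10 of 19 and 7 of 8 enriched. Some other small families had a lower share, with 3 of 8 clec genes and 1 of 3 lgc genes enriched. Of 11 grl, grd, wrt and ptr genes 4 were enriched and 1 depleted. Of 6 dod, cut and pals genes 4 were enriched, and of 5 glb genes 3, with 1 depleted. Of 6 fbxa, fbxb and fbxc genes 3 were enriched and 1 depleted. The 4 housekeeping genes had 0 enriched and 0 depleted, a median ratio of -1.34 and replicate means of -3.26, -1.05 and 0.27. Differences between these families were not tested. Both skr genes and the 1 tested ceh gene were depleted. Within the fifth domain above, gtnt-56 had 421, 313 and 253 CPM in Dam::EMR-1, against 1.48, 2.33 and 4.18 in GFP::Dam, and gtnt-7 had 309.9, 559.7 and 330.4 CPM in Dam::EMR-1, against 5.53, 4.36 and 6.75 in GFP::Dam. Their ratios were 6.96 ± 0.88 and 6.36 ± 0.26. Both genes are among the 10 highest named genes, a choice that sets the distance between their groups. The array of 5 gtnt genes at chrV:545832-595677 had a mean of 6.05 ± 0.44, the highest of any array in the arm, while another 5 at chrV:2085795-2114902 had 1.86 ± 0.09 with 1 enriched.

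Genes that carry only a clone name were not eligible for the list of the 10 highest, and some of them, such as K06H6.1 at 7.23, stood among the highest ratios. The remaining genes of the list were str-66 and str-68, clec-208, a C-type lectin gene, and srh-266. All genes of the list were chosen on their ratio, which sets the distance between their groups. The gene str-68 had a log2 ratio of 6.32 ± 0.89, averaged over its sites. Its summed reads were 3535 in Dam::EMR-1 against 1 in GFP::Dam, a ratio of CPM of 3268 that rests on this 1 read. The exact 95% interval of 586 to 129099 covers counting error only. The gene clec-208 had 315, 388 and 138.1 CPM in Dam::EMR-1, against 0.513, 0.246 and 34.2 in GFP::Dam. Its ratio was 6.65 ± 1.66 (limma adjusted p = 4.65e-05), and edgeR gave an adjusted p of 0.052, as it did for str-66.

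The 10 lowest named genes have varied roles. They were chosen on their ratio, which sets the distance between their groups. The lowest named gene was nlp-31 at chrV:3980055-3980622, an antimicrobial peptide gene of the epidermis, with 5.18, 0.636 and 5.36 CPM in Dam::EMR-1, against 294, 238 and 207 in GFP::Dam. Its ratio was -6.25 ± 0.22 (limma adjusted p = 2.23e-05), and in its array of 6 nlp genes 1 was enriched and 1, nlp-31 itself, depleted. The gene chk-1, a kinase of the replication and DNA damage checkpoint, had a log2 ratio of -6.12 ± 0.98, averaged over its sites. Its summed reads were 3 in Dam::EMR-1 against 3760 in GFP::Dam. The CPM was thus 1356 times as high in GFP::Dam, with an exact 95% interval of 464 to 6578 for counting error. The gene cdc-25.2 had 16.9, 50.1 and 16.1 CPM in Dam::EMR-1, against 766, 709 and 726 in GFP::Dam, a ratio of -4.93 ± 0.45 over 49 GATC sites. The gene gcst-1, for the aminomethyltransferase of the glycine cleavage system, had 41.9, 13.2 and 33.9 CPM in Dam::EMR-1, against 629, 616 and 542 in GFP::Dam, a ratio of -5.11 ± 1.09. The list was completed by pqn-51, srh-2, ugt-11, coh-4, unc-62 and skr-7, a gene for a Skp1-related subunit of ubiquitin ligases.

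A list of well known genes of chromosome V has 11 members in the arm. Of these 7 were depleted, 1 enriched and 3 not called, beside 10.6% depleted and 53.3% enriched among all tested genes of the arm. The list was chosen by hand with earlier results of these data known, so the counts describe these genes only. Its entry hsp-16 matched no exact symbol, which left out hsp-16.2 (-0.09) and hsp-16.41 (0.50), both not called. The homeodomain gene unc-62, the worm relative of Meis and Homothorax, had 43.96, 35.4 and 29.6 CPM in Dam::EMR-1, against 397, 446 and 409 in GFP::Dam, a ratio of -4.95 ± 0.32 (limma adjusted p = 3.87e-05). The gene unc-60 had 0.0446, 0.191 and 3.17 CPM in Dam::EMR-1, against 91.4, 78.7 and 87.04 in GFP::Dam. Groups are far apart in both, but unc-62 is also among the 10 lowest named genes, a choice that sets this distance. The Notch ligand genes lag-2 and apx-1 lie close together at chrV:3188343-3190115 and chrV:3210189-3223221. Their ratios were -3.24 ± 1.52 (limma adjusted p = 0.0099) and -4.003 ± 0.65 (limma adjusted p = 0.00072). For lag-2 CPM were 0.357, 0.127 and 0 in Dam::EMR-1, against 10.4, 15.9 and 27.6 in GFP::Dam, and the call was lost without replicate 3 (-2.37, adjusted p = 0.081).

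The calls of 2 further genes of the list, let-418 and lin-40, were less certain. The gene let-418, which encodes the Mi-2 remodeller, had 0, 2.29 and 12.4 CPM in Dam::EMR-1, against 56.9, 13.8 and 50.99 in GFP::Dam, a ratio of -3.21 ± 1.32 (limma adjusted p = 0.0059). The gene lin-40, for an MTA subunit of the NuRD complex that contains Mi-2, had 24.3, 0 and 0.0576 CPM in Dam::EMR-1, against 25.6, 11.1 and 16.2 in GFP::Dam, a ratio of -2.71 ± 0.69 (limma adjusted p = 0.012). The groups of lin-40 overlap, since its first Dam::EMR-1 library was as high as GFP::Dam. Both calls were lost in edgeR, with adjusted p of 0.135 and 0.114, and that of lin-40 also without replicate 3 (adjusted p = 0.071) and without the replicate block (adjusted p = 0.119).

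The GATA factor gene elt-7, which acts in the intestine, a tissue of the E descendants of EMS, rested on 217 reads at 3 sites. It had 0.0893, 1.4 and 0.173 CPM in Dam::EMR-1, against 5.53, 1.84 and 3.61 in GFP::Dam, a ratio of -3.06 ± 1.49 (limma adjusted p = 0.0197). Its call was lost without replicate 1 (adjusted p = 0.102), without replicate 3 (adjusted p = 0.077) and in edgeR (adjusted p = 0.146). The gene unc-46, which acts in neurons that use GABA, was the enriched one, at 2.86 ± 1.92 (limma adjusted p = 0.0194), with 21.9, 28.8 and 25.9 CPM in Dam::EMR-1, against 5.82, 11.4 and 1.55 in GFP::Dam. With sites that lie in the window of no other gene its ratio was 0.19 (adjusted p = 0.94), and the call was also lost without replicate 1, without replicate 3 and in edgeR. Not called were unc-34, the Enabled homologue, at -2.01 ± 1.85, pgl-3, a gene of P granules, at 1.05 ± 1.36, and sid-1, a channel for double-stranded RNA, at 0.39 ± 0.71 (limma adjusted p = 0.064, 0.296 and 0.69).

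Enriched bins differed from the others in content. They held 19.8 ± 6.08 GATC sites on average, not called bins 16.53 ± 5.87 and depleted bins 16.9 ± 6.102 (SD over bins). Protein-coding genes numbered 2.56, 2.11 and 2.22 per bin in the same order, chemoreceptor genes 0.957, 0.303 and 0.05, and pseudogenes 0.469, 0.1775 and 0.1. Over the 547 bins the ratio correlated with the number of chemoreceptor genes (Pearson's r = 0.351, Spearman's rho = 0.377), pseudogenes (0.278 and 0.301) and GATC sites (0.197 and 0.194), and less with nhr genes (0.0638 and 0.0566). These are descriptions over bins that share libraries and neighbours. The part of site number, read depth or base composition in the calls was not tested.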

How the data were processed

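DamID reads of 6 libraries, 3 per group as the titles give them, were analysed from the deposited tables of GATC sites and of 2-kb, 10-kb and 100-kb bins. Per the submitters' processing notes the build was ce11, and DESeq2 was used in a role that is not stated. Neither the aligner nor the handling of reads with several matches is given in the sources used here. Per the file headers, each table has 3 deposited log2 ratios, numbered like the replicates, and a deposited raw read count over all libraries together. A mean log2 value and an adjusted p-value are the authors' own comparison. As the values show, each ratio is log2 of (reads + 1) over (reads + 1), centred to a mean of 0. Which group is the numerator is not stated in the header: Dam::EMR-1 was assumed, as the tables are named for it and DamID ratios usually have the fusion on top. A ratio of libraries weighs what both constructs did, and centring sets its zero.

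The reads of each library follow from ratio and sum within a tolerance of 4e-12 on the log2 scale. They were unique for 90.2% of sites, and for 90.1%, 96.3% and 99.9% of the 2-kb, 10-kb and 100-kb bins. Recovery and fits were tested on simulated data. CPM values use totals of the 100-kb table. For genes, CPM and edgeR counts leave out sites whose reads were not unique. PCR duplicates cannot be told from molecules, so intervals cover counting error only. Per-sample columns left unused numbered 0.

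The main test was limma 3.58.1 (R 4.3.3) with an intercept on the 3 ratios, a variance trend on log2 reads, robust estimation and Benjamini-Hochberg adjustment over the whole table, two-sided, for entries with at least 60 reads. Alternatives were edgeR 4.0.16 with TMM or RLE factors, other pseudocounts, minimums, thresholds and scalings, gene bodies alone, and leaving out replicates. Regions leave out the outer 200 kb of each chromosome. Gene positions are from a RefSeq table of WBcel235, the assembly of ce11. Named genes were the 10 highest and 10 lowest called genes with a letter name (no clone names) and with reads at or above the arm's median of 2079 and all ratios in the same direction, known genes of V, the 2 most significant members at most of each family, and genes of the longest domains, of which a part is printed. The members, lists and families were chosen with earlier results of these data known. Base composition and sequences were not used here, since no genome sequence was at hand.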

Additional observations from a re-analysis of the deposited data

How the results depend on the processing

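The direction of the arm's mean ratio and of its differences from the centre and the right arm of V, and the side of the threshold of these differences, did not change under any alternative that was run. Each alternative for the regions kept the joint fit over differences that share the arm. The mean ratio of 1.47 was 1.81 as a median over bins, 1.83 in 2-kb bins, 1.28 with reads summed over the arm and scaled by total reads and 2.08 with scaling by total reads, which raises 10-kb ratios by 0.60 on average. The difference from the centre of V ran from 1.44 to 1.71 and that from its right arm from -0.97 to -0.75 over the replicates left out. With reads summed over each region the differences of the arm from the right arm of I (-0.26), the left arm of III (-0.37) and the right arm of IV (0.65) changed sign. The cause was not tested. Counts of bins moved most with the threshold and with the number of replicates, and counts of genes with edgeR. At an adjusted p of 0.01 the arm had 143 enriched and 33 depleted 10-kb bins and 82 and 40 of 2 kb. With 1 replicate left out, 10-kb bins numbered 167 to 199 enriched and 38 to 50 depleted, the lowest without replicate 3, and 2-kb bins 195 to 253 enriched and 75 to 86 depleted, with fewer ratios per fit. EdgeR on genes called 240 enriched and 68 depleted, against 645 and 128 in limma. Shares over all bins or genes are not given here for these alternatives, so their counts do not show an excess in the arm. The ratio of pgl-3, not called, was -1.35 in edgeR, and that of sid-1, not called, ran from -0.00072 without replicate 2 to 0.69 without replicate 3. EdgeR used only sites whose reads were recovered, which for pgl-3 were 3 of 7, while the limma ratio used all of its sites.

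The ratios pair libraries by number, which makes the number a block. Libraries of the same number did not deviate together, with correlations of -0.0012, 0.012 and 0.013. Whether they were prepared together is not given in the labels. Without the replicate block limma on log2(CPM + 1) called 306 enriched and 54 depleted 10-kb bins and 630 enriched and 95 depleted genes, and the difference from the centre of V was 1.50 and that from its right arm -0.76. For these calls too the shares over all bins and genes are not given here. Of the 75 named genes 24 lost their call in edgeR and 4 without the block. Among all genes of the arm, 1 limma call was reversed in edgeR and 1 without the block. Base composition per bin was not run. Depth limits single 2-kb bins and genes with few sites most.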
